A study of Mus musculus with 6 samples.

Results

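The suppressor of cytokine signaling (SOCS) family was described here in AML1-ETO9a (AE9a) leukemia cells from mice given oil or tamoxifen. Its members were taken by name from the deposited table as Socs1, Socs2, Socs3, Socs4, Socs5, Socs6, Socs7 and Cish, and all 8 had a row among the 53618 named rows. SOCS proteins bind phosphorylated tyrosines on cytokine receptors or on the JAK kinases attached to them, and their shared SOCS box recruits elongins B and C and cullin 5, which mark the bound protein for degradation. Several of the family's genes are switched on by the STAT factors that those receptors activate, so that the proteins close a negative feedback loop. In blood cells SOCS1 is best known for restraining interferon signaling, CISH and SOCS2 for restraining STAT5-activating cytokines, and SOCS3 for restraining receptors that use gp130.

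The RNA came from GFP+Lin-c-Kit+ spleen cells, the leukemic progenitors that carry the retrovirus. The leukemia was started in fetal liver cells of Usp18+/f UBCER-Cre mice by a vector expressing AE9a and GFP, and was passed on to sub-lethally irradiated C57BL/6 recipients. Cre fused to the estrogen receptor is expressed in all tissues of this strain and becomes active on tamoxifen. The allele is therefore labelled Usp18+/f in the 3 oil libraries and Usp18+/Δ in the 3 tamoxifen libraries, while AE9a, UBCER-Cre and one wild-type Usp18 allele are common to both groups. Spleens were taken 3 days after the first injection, and each library is from a separate mouse. The comparison asks which genes change in the leukemic cells when one copy of Usp18, a protease for ISG15 and a brake on interferon receptor signaling, is removed. No tamoxifen-treated leukemia without Cre was analysed here, so loss of the allele and tamoxifen itself cannot be told apart. Mice of both sexes were young adults throughout the study, and the labels give neither the age of each mouse nor the number of primary leukemias behind the recipients.

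Values are read counts divided by each library's size factor, called normalized counts below, and fold changes are differences of log2(normalized count + 1), tamoxifen minus oil. The libraries held 19164795 to 23770537 reads in named genes. One library, tamoxifen 1, stood apart: its median correlation with the other libraries was 0.913, against 0.981 to 0.990 for the rest, and its deviation from the gene medians followed the GC content of the transcript (Spearman's rho across genes 0.70, against -0.22 to 0.035 in the other 5 libraries). The share of mitochondrial reads was 0.00923% in tamoxifen 1 and 1.01% to 1.56% elsewhere. Changes of the family members are given with and without it. Usp18 itself did not fall in the libraries labelled tamoxifen. It was at 217, 214 and 176 in oil and at 477, 329 and 284 in the libraries labelled tamoxifen, a log2 fold change of 0.81 (SE 0.25, adjusted p = 0.666, limma), so that its total count does not show the labelled deletion. Reads from the allele without the deleted part cannot be told from the others in a table of gene totals. The antisense gene Gm44148 overlaps its exons, and no strand setting is given in the sources used here.

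Most members were readily measured and a pair were almost silent, as the plot of family transcripts by library shows. Socs1, Socs2, Socs4, Socs6, Socs7 and Cish had at least 320 normalized counts in every library and were among the 12298 genes tested, and Socs3 and Socs5 stayed below the filter of 10 normalized counts in 3 libraries. Divided by the merged exon length in kb, Socs1 was the highest of the family in oil at 344 ± 27.6 (SD, n = 3), followed by Socs4 at 192 ± 6.88 and Socs2 at 179 ± 9.61. The ranges of Socs4 and Socs2 overlapped on this scale. Socs7 at 85.1 ± 3.91, Cish at 68.6 ± 3.97 and Socs6 at 35.6 ± 5.54 came next, and Socs3 at 2.05 ± 0.568 and Socs5 at 0.385 ± 0.215 were last. The order depended on the length used. Per kb of the longest transcript, Socs2 was first in oil at 402 followed by Socs1 at 344. Of the per-kb sum over all 8 members, Socs1 made up 37.3%, 36.0% and 40.6% in oil and 65.8%, 44.6% and 47.9% in the libraries labelled tamoxifen.

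**Figure D1:**
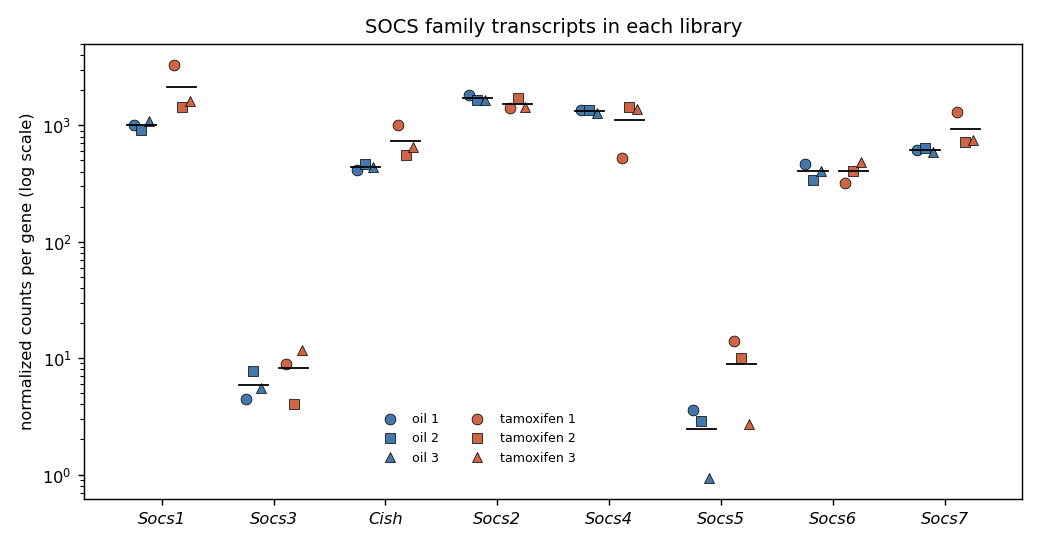
Normalized counts per gene (log axis) of the 8 family members in each library, with oil in blue, the libraries labelled tamoxifen in orange, 1 point per mouse and a bar at the group mean. Socs1, Cish and Socs7 lie higher in all 3 tamoxifen points than in any oil point, and Socs3 and Socs5 lie near or below 10. Tamoxifen 1 (orange circle) is the farthest point from its group mean for Socs1, Cish, Socs7, Socs4 and, narrowly, Socs6.

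In the unweighted limma fit of all 6 libraries without GC correction, no member and no other gene passed an adjusted p of 0.05 (0% of genes called). At an unadjusted p under 0.05, 2 of the 6 tested members, Socs1 and Cish, were higher in the libraries labelled tamoxifen, against 3.23% of all genes tested in that direction. That count of 2 depended on the libraries: by limma it was 0 without oil 1 or without oil 2, 1 (Socs1) without oil 3 and 3 (with Socs7) without tamoxifen 1, where 2.32%, 1.6%, 1.72% and 6.04% of all genes were higher at that p. With the replicate block it was 1 (Socs1), against 2.7% of genes. With all 6 libraries, Socs1 and Cish also had an unadjusted p under 0.05 by edgeR, where 3.98% of genes were higher at that p and 0% were called after adjustment. They did so too by DESeq2, where 3% of genes were higher at that p and 0.293% (71 of 24246) were called after adjustment, with no member among them. All 3 values labelled tamoxifen exceeded all 3 oil values for Socs1, Cish and Socs7, and the reverse held for 0 members. Among all genes tested, 7.86% lay higher and 9.69% lower without overlap. The median log2 fold change was 0.26 over the 6 tested members and -0.02 over all genes tested. Without tamoxifen 1, which leaves 2 libraries against 3, Socs1 was the only member past the threshold in limma, edgeR and DESeq2, where 0.309%, 0.35% and 0.731% of genes were called higher by each. In a bulk sample more cells of a type and more RNA per cell cannot be told apart.

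Socs1 (ENSMUSG00000038037.5; GRCm38, chromosome 16, 10782240 to 10785536, minus strand) encodes an inhibitor that binds JAK kinases and blocks their catalytic site through a kinase inhibitory region. It was at 1002, 921 and 1082 normalized counts in oil and at 3328, 1440 and 1619 in the libraries labelled tamoxifen. Every tamoxifen value was above every oil value, and tamoxifen 1 was far above the other two. The mean was 1002 ± 80.2 (SD, n = 3) in oil and 2129 ± 1042 in tamoxifen, a ratio of 2.13. The log2 fold change was 0.99 (SE 0.32, 95% interval 0.21 to 1.76, adjusted p = 0.666, limma), so that it missed the threshold. Without tamoxifen 1, Socs1 rose by a log2 fold change of 0.61 (interval 0.39 to 0.83, adjusted p = 0.0426, limma), a ratio of means of 1.53. The adjusted p without that library was 0.0336 by edgeR and 5.54e-05 by DESeq2. In the same limma fit 41 genes passed the threshold, 6 of them from fixed lists of pathway genes. The mast cell gene Cpa3 was also among the 41, at 1.10 (adjusted p = 0.00183), and the part of mast cells in the Socs1 value was not tested. With each library corrected for its trend with GC content and all 6 kept, the log2 fold change was 0.64 (interval 0.38 to 0.90) and the adjusted p 0.228 by limma. The GC-corrected log2 values were 10.02, 9.91 and 10.11 in oil and 10.73, 10.55 and 10.67 in tamoxifen, where tamoxifen 1 lay close to the others.

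The sequence upstream of Socs1 is shown because the gene is known as an interferon target. Motifs were searched on both strands in RefSeq windows of 300 bases (250 before to 50 after the start, GRCm38.p6), and 4 of the 8 members, Socs1, Socs3, Socs4 and Cish, had such a window. An interferon-stimulated response element was taken as GAAA, any 2 bases and GAAA again (on the reverse strand TTTC, any 2 bases and TTTC), and was found in 3.43% of 32817 promoters. A gamma-activated site, the letters to which STAT dimers bind, was taken as TTCNNNGAA and was found in 8.29% of them. The wider spacing used by STAT6, with 4 free bases in place of 3, was found in 6.94%. The 250 bases before the Socs1 start, chr16:10785537-10785786 on the minus strand, are printed 5′ to 3′ with the response element matches in capitals:
Socs1: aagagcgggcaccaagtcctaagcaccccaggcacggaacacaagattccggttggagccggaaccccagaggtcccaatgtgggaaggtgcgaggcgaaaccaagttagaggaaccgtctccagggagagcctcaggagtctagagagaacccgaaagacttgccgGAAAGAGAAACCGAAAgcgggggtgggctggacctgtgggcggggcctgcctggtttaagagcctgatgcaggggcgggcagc
The matches, GAAAGAGAAA at 83 to 74 bases and GAAACCGAAA at 77 to 68 bases before the start, overlap each other. The window held neither spacing of the STAT sites. Such a match describes letters and no binding was measured here.

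Cish (ENSMUSG00000032578.7; chromosome 9, 107296026 to 107302784, plus strand) encodes the family's founding member, which is induced by STAT5 and competes for the receptor sites where STAT5 docks. Its normalized counts were 415, 466 and 440 in oil and 1002, 558 and 653 in the libraries labelled tamoxifen. The groups did not overlap, and tamoxifen 1 was again the highest. The mean was 440 ± 25.5 (SD, n = 3) in oil and 738 ± 234 in tamoxifen, with a log2 fold change of 0.70 (SE 0.24, interval 0.11 to 1.28, adjusted p = 0.666, limma). Without tamoxifen 1 the log2 fold change was 0.46 (interval 0.20 to 0.71, adjusted p = 0.181), and after GC correction it was 0.53 (interval 0.19 to 0.86, adjusted p = 0.579, limma). Cish passed the threshold under library weights, which gave tamoxifen 1 a weight of 0.0377, at 0.51 (log2 fold change; adjusted p = 0.016, limma), where 3.82% of genes were called higher, and so did Socs1 at 0.69 (adjusted p = 0.00295). Its exons overlap the opposite-strand genes Gm17040, listed at 3.83 to 15.2, and Gm17041, listed at 0 in all libraries, so that reads of those genes could not be separated if strand was not used.

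Gamma-activated sites were matched in the windows of Cish and of Socs3, which are classical STAT targets, and are shown in capitals within 30 bases of reference sequence, at chr9:107296654-107296683 on the plus strand for Cish and chr11:117969502-117969531 on the minus strand for Socs3:
Cish: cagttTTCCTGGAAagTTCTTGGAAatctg
Socs3: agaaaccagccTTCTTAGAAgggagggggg
In Cish the matches TTCCTGGAA and TTCTTGGAA cover bases 1 to 9 and 12 to 20 after the RefSeq start, which lies inside the longer gene model that gave the coordinates above. In Socs3 the match TTCTTAGAA lies 154 to 146 bases before the start. Both windows lacked the response element letters, and the Socs4 window held no match of any of the 3 motifs. The members with a matched gamma-activated site thus included Cish, whose groups did not overlap, and Socs3, which was nearly silent in both groups.

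Socs2 (ENSMUSG00000020027.18; chromosome 10, 95385362 to 95417180, minus strand), the closest relative of Cish and a brake on growth hormone signaling, had 1810, 1652 and 1651 normalized counts in oil. It had 1417, 1732 and 1449 in the libraries labelled tamoxifen, where the group ranges overlapped. The log2 fold change was -0.16 (SE 0.15, interval -0.51 to 0.20, adjusted p = 0.667, limma), and -0.10 (interval -0.32 to 0.11) without tamoxifen 1. After GC correction it was 0.01. Ratios to Socs2 within each library are given below. Because Socs2 changed little in these same data, they largely restate the changes of Socs1 and Cish and are no separate support. Nor do they remove the GC trend of tamoxifen 1. Relative to tamoxifen 2 and 3, genes near the GC content of Socs2 had a median of -0.54 (log2) in that library. Those near the GC content of Socs1 had 0.90. The Socs1 to Socs2 ratio of normalized counts was 0.553, 0.558 and 0.655 in oil and 2.35, 0.831 and 1.12 in the libraries labelled tamoxifen. Every tamoxifen ratio was above every oil ratio, and the mean log2 ratio differed by 1.14 (two-sided exact permutation p = 0.1, the smallest that 3 against 3 allows) and by 0.72 without tamoxifen 1. The Cish to Socs2 ratio was 0.229, 0.282 and 0.267 in oil and 0.707, 0.322 and 0.451 in tamoxifen, and the Socs1 to Cish ratio was 2.41, 1.98 and 2.46 against 3.32, 2.58 and 2.48. The groups did not overlap for either ratio, although for Socs1 to Cish the lowest tamoxifen value and the highest oil value were nearly equal.

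**Figure D2:**
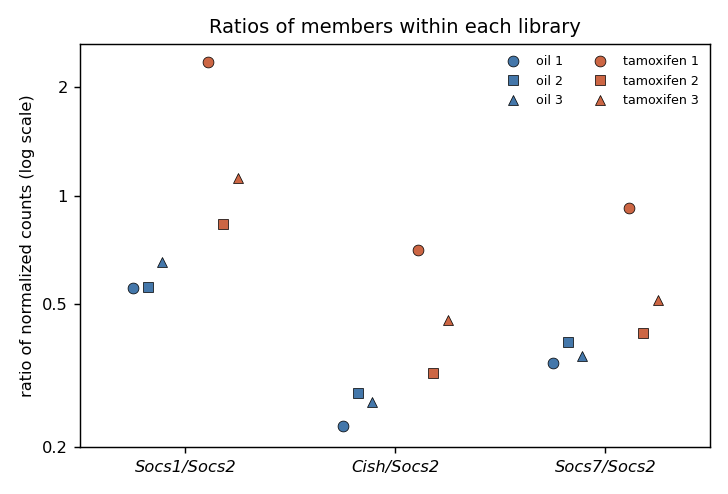
Ratio of the normalized counts of Socs1, Cish and Socs7 to those of Socs2 within each library (log axis), 1 point per mouse, oil in blue and the libraries labelled tamoxifen in orange. All 3 tamoxifen points lie above the oil points for each ratio, with tamoxifen 1 the highest at 2.35 for Socs1 to Socs2. The ratios do not remove the GC trend of tamoxifen 1.

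Socs3 (ENSMUSG00000053113.3; chromosome 11, 117966079 to 117970047, minus strand), which like SOCS1 carries a kinase inhibitory region and acts on gp130 and on the receptors for G-CSF and leptin, was counted by a handful of reads. Its whole reads were 5, 8 and 6 in oil and 7, 4 and 13 in the libraries labelled tamoxifen. Summed over the group they were 19 (exact Poisson 95% interval 11.4 to 29.7) and 24 (15.4 to 35.7), intervals that cover counting error only. A difference was not detectable at this depth. Socs5 (ENSMUSG00000037104.9; chromosome 17, 87107679 to 87137839, plus strand), which has a long N-terminal region and is linked to IL-4 and EGF receptor signaling, had 4, 3 and 1 reads in oil and 11, 10 and 3 in tamoxifen. The sums were 8 (3.45 to 15.8) and 24 (15.4 to 35.7), and the lowest tamoxifen library lay within the oil range. With no filter on low values, the adjusted p was 0.782 for Socs3 and 0.713 for Socs5 by limma.

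Socs4, Socs6 and Socs7, with Socs5, form the branch of the family with long N-terminal regions and are linked to receptor tyrosine kinases such as the EGF, KIT and insulin receptors. Socs7 (ENSMUSG00000038485.5; chromosome 11, 97362551 to 97398542, plus strand) was at 619, 646 and 590 in oil and at 1307, 717 and 743 in the libraries labelled tamoxifen. Its groups did not overlap, and most of the distance lay in tamoxifen 1. The log2 fold change was 0.52 (SE 0.26, interval -0.10 to 1.14, adjusted p = 0.666, limma), and 0.24 (interval 0.03 to 0.45, adjusted p = 0.358) without that library.

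Socs4 (ENSMUSG00000048379.9; chromosome 14, 47276931 to 47296102, plus strand) was at 1349, 1348 and 1267 in oil and at 527, 1427 and 1384 in tamoxifen. Its direction turned on tamoxifen 1, the only library under 1267. The log2 fold change was -0.38 (SE 0.39, interval -1.31 to 0.55, adjusted p = 0.669, limma) and 0.09 (interval -0.09 to 0.27) without it, neither past the threshold. Socs6 (ENSMUSG00000056153.15; chromosome 18, 88665224 to 88927481, minus strand) was at 465, 340 and 406 in oil and at 320, 409 and 483 in tamoxifen. The groups overlapped almost entirely, with a log2 fold change of -0.01 (SE 0.23, interval -0.55 to 0.53, adjusted p = 0.988, limma) and 0.15 (interval -0.19 to 0.49) without tamoxifen 1.

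**Figure D3:**
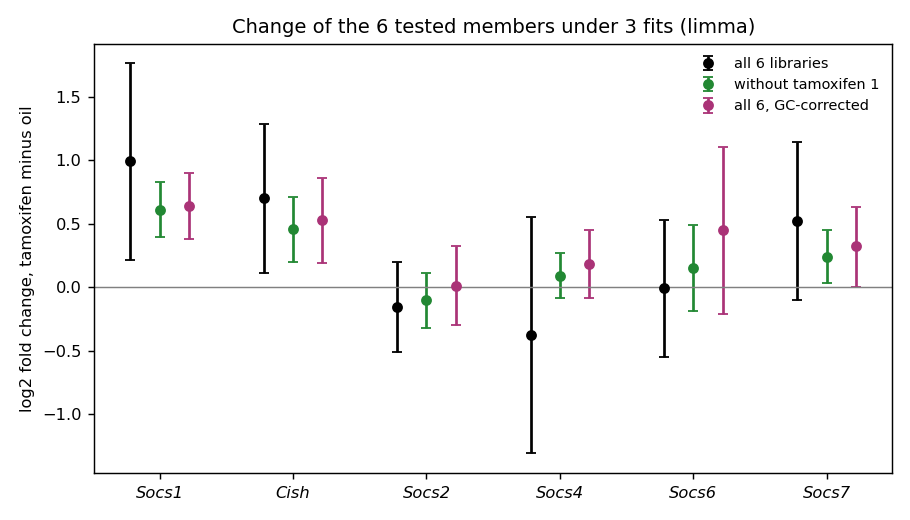
Log2 fold change (tamoxifen minus oil) of the 6 tested members from limma, with 95% intervals, from all 6 libraries (black), without tamoxifen 1 (green) and from all 6 after GC correction (purple). Socs1 and Cish stay above 0 in all 3 fits, Socs4 moves from -0.38 to 0.09 and 0.18, and the intervals of Socs2 and Socs6 hold 0 throughout.

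The spread among mice was unequal between the groups. The coefficient of variation of Socs1 was 8.01% in oil and 49.0% in tamoxifen, that of Cish 5.79% and 31.7%, and that of Socs4 3.58% and 45.6%. Socs2 and Socs6 varied the least in tamoxifen, at 11.3% and 20.3%. Tamoxifen 1 was the farthest value from its group mean for Socs1, Cish, Socs7, Socs4 and, narrowly, Socs6. Members with GC-rich transcripts lay high in it while AT-rich ones lay low. Socs1, at 58.8% GC, was 1.12 higher on the log2 scale in tamoxifen 1 than the mean of tamoxifen 2 and 3, against a median of 0.90 over 655 genes within 1 percentage point of its GC content. Cish, at 53.1% GC, was 0.73 higher, against 0.40. Socs4, at 38.5% GC, differed by -1.41, against -1.76, and Socs6, at 39.9% GC, by -0.48, against -1.45. All 6 tested members lay above the median for their GC content in that library. In tamoxifen 2 and 3 alone, Socs1, Cish, Socs7 and Socs4 were above every oil library, as were 12.6% of all genes tested.

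**Figure D4:**
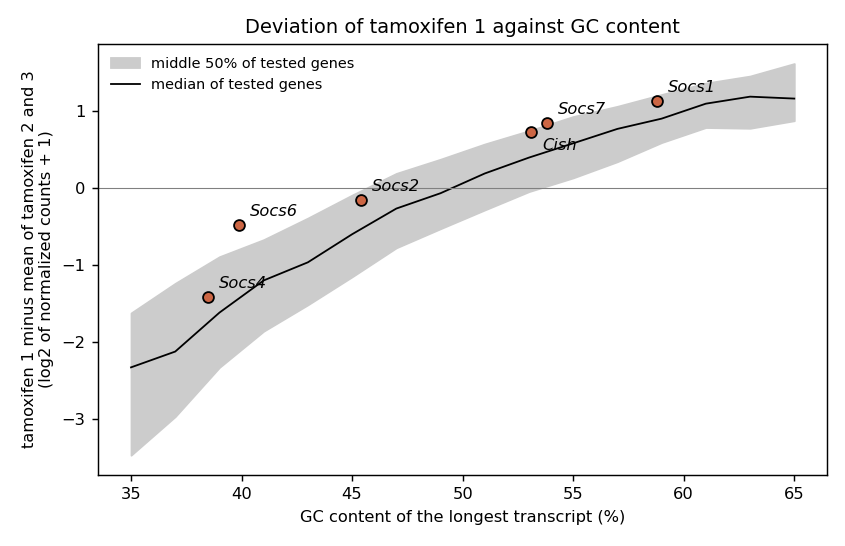
Log2 normalized count in tamoxifen 1 minus the mean of tamoxifen 2 and 3, against GC content of the longest transcript in percent, for the 6 tested members (points) and for all genes tested (line at the median, band over the middle 50%). The members lie above the median line, with Socs4 at -1.41 and Socs1 at 1.12. Socs6 lies well off the line, at -0.48 against a median of -1.45 for its GC content.

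The genes most like each member over the 6 libraries were sought by Pearson's r of the log2 values, a description that tamoxifen 1 dominates. They were Akap1, Inf2 and Trp53rkb for Socs1 (0.996 to 0.998) and Tns3, Selplg and Isg20 for Cish (0.997 to 0.998). Isg20, an interferon-induced exonuclease, was at 203, 254 and 249 in oil and at 964, 371 and 457 in tamoxifen. For Socs7 they were Ankrd52, Trim11 and A230050P20Rik (each 0.998), for Socs4 Rc3h2, Pqlc3 and Slc25a36, for Socs2 Coa4, Ikbip and Cep68 (0.979 to 0.986) and for Socs6 Calr3, Clec2f and Gda (0.977 to 0.982). Between members, r was 0.978 for Socs1 with Cish, 0.963 for Socs1 with Socs7 and -0.858 for Socs1 with Socs4, over the same 6 libraries.

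The signaling genes around the family were counted from fixed lists, with 0 genes past the adjusted threshold in the unweighted limma fit of all 6 libraries, 8 by DESeq2 and 14 by limma with library weights. Among ligands, 5 of 20 were measured well enough to test, and Ifnb1, Ifng, Il3, Il21, Epo and Thpo were listed at 0 throughout. Lif, a gp130 cytokine, was at 5.39, 1.93 and 2.79 in oil and 65.2, 16.2 and 33.6 in the libraries labelled tamoxifen, without overlap (log2 fold change 3.04, SE 0.60, adjusted p = 0.618, limma, and 2.56 without tamoxifen 1). It passed the filter only through the tamoxifen group. Osm, another gp130 cytokine and a STAT5 target, was at 607, 537 and 612 in oil and 1040, 661 and 693 in tamoxifen, and Il4 was at 612, 604 and 581 in oil and 208, 502 and 576 in tamoxifen. Osm was higher and Il4 lower without overlap, and their log2 fold changes of 0.42 and -0.61 were 0.21 and -0.16 without tamoxifen 1.

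Of 31 receptors, 17 were tested, and 3 were higher at an unadjusted p under 0.05 (limma), namely Csf2rb2, Il10ra and Il4ra. Of all genes tested, 3.23% were higher at that p. Csf2rb2, the mouse IL-3 receptor subunit whose counts are uncertain because of its near-identical paralog Csf2rb, was at 5954, 4276 and 3271 in oil and 9408, 6322 and 11574 in tamoxifen. Il4ra, the IL-4 receptor chain, was at 795, 794 and 712 in oil and 1899, 956 and 1159 in tamoxifen. Il10ra, the IL-10 receptor chain, was at 365, 227 and 154 in oil and 615, 366 and 857 in tamoxifen. The groups did not overlap in each of them, for Il10ra by a single count, and 1 other receptor was lower without overlap, against 7.86% higher and 9.69% lower of all genes tested. Csf2rb2, Il4ra and Il10ra had log2 fold changes of 1.02, 0.74 and 1.30 and adjusted p = 0.666 for each (limma). Those without tamoxifen 1 were 0.97, 0.46 and 1.26.

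Of the 11 JAK kinases and STATs, 10 were tested and 0 had an unadjusted p under 0.05 or separate groups (limma), with a median log2 fold change of 0.11 and, without tamoxifen 1, -0.03. Stat2, Jak1 and Tyk2 had the smallest p of these, with log2 fold changes of 0.40, -0.26 and 0.26 that were 0.16, -0.04 and 0.02 without tamoxifen 1, and Stat4 was listed at 0. Over all genes tested, 4.47% had an unadjusted p under 0.05 in either direction and 3.23% were higher at that p (limma). Among 13 other inhibitors of the pathway, 12 were tested and 1, Usp18 itself, had an unadjusted p under 0.05. Without overlap 2 of them were higher and 3 lower, against 7.86% higher and 9.69% lower of all genes tested. Next by p after Usp18 were the SUMO ligase gene Pias1 at -0.63 and the phosphatase gene Ptpn1 at 0.34, which were -0.15 and 0.11 without tamoxifen 1. The 10 genes that build or drive the SOCS box ubiquitin ligase, such as Elob, Eloc and Cul5, all passed the filter, with 0 at an unadjusted p under 0.05 (limma) and a median of -0.33, or -0.06 without tamoxifen 1. Of the other SOCS box proteins 13 of 27 were tested, with 0 at an unadjusted p under 0.05 and a median of 0.21, or 0.06 without tamoxifen 1. Spsb3 and Asb6 lay higher without overlap, with log2 fold changes of 0.67 and 0.49, or 0.40 and 0.15 without tamoxifen 1.

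Targets of STAT5 and of STAT3 were counted next. Of 11 STAT5-induced genes 9 were tested, 1 was higher at an unadjusted p under 0.05 (Gfi1, a transcriptional repressor, log2 fold change 1.76, or 1.52 without tamoxifen 1, which passed the filter only through the tamoxifen group) and 3, Gfi1 included, were higher without overlap, with a median of 0.16, or 0.10 without tamoxifen 1. Pim1, a kinase gene that responds to STAT5, was at 2670, 2401 and 3172 in oil and 4637, 3171 and 3518 in the libraries labelled tamoxifen, where the ranges overlapped by a single count (log2 fold change 0.45, or 0.29 without tamoxifen 1). Of 8 STAT3-induced genes 6 were tested and 1, Il4ra, was higher at an unadjusted p under 0.05, while 1 was higher and 1, Hif1a, lower without overlap, with a median of 0.18, or -0.01 without tamoxifen 1. Over all genes tested, 3.23% were higher at an unadjusted p under 0.05 (limma), and 7.86% were higher and 9.69% lower without overlap.

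Markers of other cells were checked beside these values, although the GFP+Lin-c-Kit+ sort is meant to remove mature lineage-positive cells such as neutrophils, macrophages and erythroid cells. The progenitor marker Kit was at 8990, 8043 and 7512 in oil and 4687, 7749 and 10976 in the libraries labelled tamoxifen, and Cd34 ranged from 288 to 843 and from 201 to 1052. Myb was at 6692, 5402 and 5328 in oil and 3097, 5188 and 5165 in tamoxifen, lower without overlap, while Mpo, at most 20.2, was higher without overlap. Neutrophil markers summed to 5.39 to 7.72 in oil and 26.4 to 62.6 in tamoxifen, with 5 of 5 higher without overlap, and macrophage markers to 38.1 to 105 and 111 to 170, with 2 of 5 higher. None of the 5 neutrophil genes passed the filter, so the share of tested genes higher without overlap, 7.86%, does not cover them. Mast cell and basophil markers summed to 14858 to 16633 and 14446 to 34878, with 1 of 5 higher, and the lowest tamoxifen sum was 22481 without tamoxifen 1. In the fit without tamoxifen 1, where Socs1 passed the threshold, the median log2 fold change of that list was 1.10. Cpa3, a mast cell protease gene, was the gene of that list that passed, 1 of 41 genes past the threshold in that fit. Cpa3 was at 3823, 3992 and 4174 in oil and 4074, 7774 and 9431 in tamoxifen. The megakaryocyte list summed to 5.79 to 9.88 and 11.1 to 21.7, with 1 of 3 higher and none past the filter. Erythroid markers, 0 of 4 higher and 1 lower, summed to 33015 to 46064 and 37565 to 72206. The part of these cells in the values of Socs1 and Cish was not tested. T and NK cell markers summed to 0 in oil and at most 1.28 in tamoxifen, with Cd3e, Cd8a, Ncr1 and Klrb1c at 0. The endothelial list summed to 5.79 to 10.2 and 7.07 to 13.6, with 0 of 3 higher.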

How the data were processed

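RNA from 6 libraries was sequenced as paired reads and, per the labels, aligned with STAR to mm10 and normalized with DESeq2 (versions, annotation, strand and filters not given in the sources used here). The deposited values are of the unit signal: the authors' read counts divided by a size factor. Whole reads could be recovered (100% of values within 0.01 of a whole number, 1 read worth 0.898 to 1.28), although the main test was kept on the deposited values. The 1832 rows that name no gene, 0.04% to 0.0614% of reads, were left out. Genes with 10 normalized counts in at least 3 libraries were tested by limma 3.58.1 (R 4.3.3) with a mean-variance trend on log2(value + 1), with Benjamini-Hochberg adjustment and a threshold of 0.05. Alternatives were edgeR 4.0.16, DESeq2 1.42.0, other scaling, pseudocounts (0.5, 5) and filters, GC correction (loess span 0.3), library weights, the replicate block and each library left out. Scripts were first tested on simulated data. Coordinates, exon lengths and GC content are from GENCODE M21, promoters from RefSeq. The named genes are the 8 members, Usp18, up to 3 genes of each list with the smallest p, and the 3 genes most alike to each member. Other genes were named after their values were seen. The members and lists were chosen with earlier results of these data known. One marker list and one list of target genes are not reported here.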

Additional observations from a re-analysis of the deposited data

How the results depend on the processing

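Socs1 and Cish kept their direction under all 19 alternatives, with log2 fold changes of 0.61 to 1.21 (adjusted p 5.54e-05 to 0.861) and 0.46 to 0.88 (0.016 to 0.861), as did Socs7 (0.24 to 0.67). Socs1 was past the threshold in 4 of them, Cish in 1 and Socs7 in 0. The count of members past the threshold was 2 with library weights and 1 without tamoxifen 1 (limma, edgeR and DESeq2 each), and 0 to 1 with 1 library left out. Over all genes it was 71 by DESeq2, 2 after GC correction, 782 with library weights, 0 to 41 with 1 library left out, and 46 by edgeR and 230 by DESeq2 without tamoxifen 1. Over the pathway lists it was 8 by DESeq2, 14 with weights, 0 to 6 with 1 library left out, and 6 (edgeR) and 8 (DESeq2) without tamoxifen 1. The last edgeR and DESeq2 fits were chosen after seeing the data.

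The other tested members, which missed the threshold, changed sign, and the cause was not tested. Socs2 was 0.01 after GC correction, also with the replicate block. Socs4 was 0.18 after GC correction, also with the replicate block, 0.06 with weights, and 0.09, 0.11 and 0.10 without tamoxifen 1 by limma, edgeR and DESeq2, with -0.63 to 0.09 when 1 library was left out. Socs6 was 0.00182 by DESeq2, 0.02 by edgeR, 0.45 after GC correction, also with the replicate block, 0.26 with weights, 0.10 and 0.00245 without oil 1 and oil 3, and 0.15, 0.17 and 0.16 without tamoxifen 1, with -0.15 to 0.15 when 1 library was left out.

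The labels do not say whether equal replicate numbers mark paired mice. The deviations of same-numbered libraries from their group means correlated at -0.0236, 0.0607 and -0.153, and 2 of 6 libraries correlated best with their own number. These values cannot decide it, because the outlying tamoxifen 1 weighs heavily on the deviations of its group. With the replicate block 0 members and 0 genes were called by limma (426 at an unadjusted p under 0.05), and Socs1 was 0.99 (adjusted p = 0.731). With 3 mice a group, or 2 without tamoxifen 1, an adjusted p that misses the threshold does not show that a member did not change, and counts of 1 to 13 reads a library limit Socs3 and Socs5.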
